A study of Mus musculus with 37 samples.

Results

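Circadian clock and output genes were followed across 4 brain regions (olfactory bulb, cortex, cerebellum, brain stem) in mice carrying 1, 2 or 3 copies of the segment syntenic to human 16p11.2. The group has 10 genes: Per1, Per2, Per3, Dbp, Nr1d1, Nr1d2, Ciart, Arntl (also called Bmal1), Tef and Hlf. Each was represented by the probe set that carried its symbol alone and had the highest mean. All 10 were found among the 19938 genes measured, and all 10 lay in the brighter 10901 genes, whose +/+ mean in some region exceeded the median gene. The genes were selected on the agreement of their log2 values between the regions of a mouse, so that agreement is given below as a description and not as a test.

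The groups were df/+ mice, heterozygous for a deletion of the segment (2 mice), +/+ wild-type mice (3 mice) and dp/+ mice, heterozygous for its duplication (3 mice). Every animal was an F1 hybrid male of C57BL/6N and 129Sv. RNA came from whole dissected regions, so fewer cells of a type and less RNA per cell cannot be told apart. The age, the light schedule and the hour of dissection are not given in the sources used here.

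The 37 arrays represent 31 region samples of 8 mice, because 6 samples were hybridised to 2 arrays each and dp/+ mouse 3 has no cortex array. Values are log2 probe set summaries from the robust multi-array average (RMA), in which a difference of 1 is a doubling. The labels matched the copy number: 4 of 4 interval genes examined (Kctd13, Taok2, Ppp4c and Sez6l2) were ordered df/+, +/+, dp/+ without overlap of the mice, at -0.95 to -0.64, -0.12 to 0.13 and 0.21 to 0.47 relative to the +/+ mean. Every measured marker of a region was highest there: 5 marked the bulb, 5 the cortex, 6 the cerebellum and 6 the brain stem. A pair of probe sets carry the symbol Ciart, and neither could be placed on the genome here, so results of the second are given beside those of the first. Probe set numbers of the other genes with a RefSeq entry rose from chromosome 11 through 14, 15 and 4 to 7. Ciart is listed on chromosome 3. The second set is numbered between those of chromosomes 15 and 4, and the first below those of chromosome 11. Whether the first set measures Ciart was not tested. Within genotype and region, the Pearson correlation of the pair was 0.71.

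The mammalian clock is a feedback loop of transcription. The proteins encoded by Arntl and Clock bind as a pair to E-box elements and switch on the Per and Cry genes, whose products return to the nucleus and inhibit that pair. The nuclear receptors Nr1d1 and Nr1d2 (REV-ERB alpha and beta), also driven through E-boxes, repress Arntl, so Arntl peaks at the opposite phase to them and to the Per genes. Ciart is a further repressor of the loop, and the related factors Dbp, Tef and Hlf carry the rhythm to D-box elements of output genes. The suprachiasmatic nucleus of the hypothalamus keeps the phase of clocks elsewhere in the brain and body.

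Upstream sequences are shown for 6 of the genes, since their regulatory elements define the loop. The sequences are the 250 bases before the start site, 5′ to 3′ on the gene's strand, from RefSeq on build GRCm38.p6, with matches in capitals. The series names no build, and these coordinates are RefSeq's. Matches were sought on both strands to the E-box CACGTG, the D-box TTANGTAA, the cyclic AMP response element TGACGTCA and the nuclear receptor site AGGTCA, which did not overlap one another in the windows shown. For Per1 and Arntl, which have several start sites, the first window listed is shown.
Ciart (chr3:95882229-95882478, minus strand): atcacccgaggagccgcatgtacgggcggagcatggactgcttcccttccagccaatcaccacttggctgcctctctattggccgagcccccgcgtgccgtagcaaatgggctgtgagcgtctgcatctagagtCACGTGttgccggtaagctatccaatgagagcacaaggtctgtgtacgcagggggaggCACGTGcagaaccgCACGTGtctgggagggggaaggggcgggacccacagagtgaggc
Per1 (chr11:69098699-69098948, plus strand): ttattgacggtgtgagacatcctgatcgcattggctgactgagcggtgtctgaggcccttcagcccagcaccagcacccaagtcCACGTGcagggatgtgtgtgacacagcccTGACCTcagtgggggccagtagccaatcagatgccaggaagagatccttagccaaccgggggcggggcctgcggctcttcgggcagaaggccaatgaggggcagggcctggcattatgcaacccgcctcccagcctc
Per3 (chr4:151044666-151044915, minus strand): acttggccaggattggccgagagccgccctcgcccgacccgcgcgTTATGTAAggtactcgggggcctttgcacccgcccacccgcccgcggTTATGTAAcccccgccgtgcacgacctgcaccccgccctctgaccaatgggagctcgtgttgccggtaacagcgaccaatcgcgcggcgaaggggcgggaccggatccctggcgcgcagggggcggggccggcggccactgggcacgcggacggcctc
Dbp (chr7:45704997-45705246, plus strand): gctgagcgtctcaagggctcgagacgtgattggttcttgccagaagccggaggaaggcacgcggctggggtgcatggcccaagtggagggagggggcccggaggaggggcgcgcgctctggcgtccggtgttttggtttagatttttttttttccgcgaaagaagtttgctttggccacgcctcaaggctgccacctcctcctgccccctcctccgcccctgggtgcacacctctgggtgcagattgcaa
Nr1d1 (chr11:98775378-98775627, minus strand): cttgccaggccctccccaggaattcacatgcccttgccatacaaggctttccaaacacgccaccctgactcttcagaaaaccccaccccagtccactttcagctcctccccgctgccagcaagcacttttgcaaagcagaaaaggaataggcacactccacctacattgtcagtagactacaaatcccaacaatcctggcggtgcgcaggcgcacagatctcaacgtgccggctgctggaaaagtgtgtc
Arntl (chr7:113207215-113207464, plus strand): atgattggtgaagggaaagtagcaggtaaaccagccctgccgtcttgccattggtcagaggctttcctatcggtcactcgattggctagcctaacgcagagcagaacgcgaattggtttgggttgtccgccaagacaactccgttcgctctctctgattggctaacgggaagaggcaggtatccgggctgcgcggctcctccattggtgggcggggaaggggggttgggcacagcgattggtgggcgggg

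Ciart holds 3 E-boxes, Per1 holds 1 E-box and 1 receptor site (on the opposite strand), and Per3 holds 2 D-boxes. Dbp, Nr1d1 and Arntl hold none of these letters in the windows printed. The RefSeq table lists 9 of the 10 genes, with 12 windows in all, and the entry for Per2 is missing from it. E-boxes were found in 4 of the 12 windows (of Per1, Ciart and Tef) and in 6.02% of all 32851 windows of this length. The D-box was found in 1 window (Per3; 2.06% of all windows), the cyclic AMP element in 1 (Hlf; 1.55%) and the receptor site in 2 (Per1 and Nr1d2; 14%). Per3 was added to those shown after its match was seen.

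In +/+ mice, 8 of the 10 genes differed between the 4 regions (limma F test, adjusted p below the threshold of 0.05), and Dbp and Ciart did not pass. The same test called 58.0% of all genes, and 81.3% of the brighter genes when those alone were tested. The clock genes did not share 1 regional order. Per1 was highest in the olfactory bulb, Hlf, Tef and Ciart in the cortex, and Per2, Per3, Nr1d1, Nr1d2 and Arntl in the cerebellum. All means below are log2 values with the SD of 3 mice.

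Arntl, the activator, read 9.15 ± 0.14 (cerebellum), 9.11 ± 0.11 (cortex), 8.71 ± 0.09 (olfactory bulb) and 8.50 ± 0.21 (brain stem). By limma, the cerebellum and cortex were not separated (adjusted p = 0.755), and the cortex was above the bulb (0.00433). The bulb and brain stem were not separated (0.112). Per1, a repressor that also responds acutely to light and to hormones, read 10.71 ± 0.21 (olfactory bulb), 10.39 ± 0.21 (cortex), 10.10 ± 0.13 (cerebellum) and 9.69 ± 0.25 (brain stem). Each step in that order passed the test (adjusted p = 0.0158, 0.0247 and 0.00253), and the bulb was 2.03-fold above the brain stem. Per2, its partner in the repressor complex, read 9.31 ± 0.09 (cerebellum), 9.27 ± 0.10 (cortex), 8.96 ± 0.17 (olfactory bulb) and 8.68 ± 0.06 (brain stem). The cerebellum and cortex were not separated (0.777), whereas the cortex was above the bulb (0.0188) and the bulb above the brain stem (0.0371). Per3, the third Period gene, read 9.39 ± 0.17 (cerebellum), 9.19 ± 0.06 (cortex), 9.0 ± 0.21 (olfactory bulb) and 8.94 ± 0.09 (brain stem), and no neighbours in that order were separated (0.139, 0.181 and 0.699). The Per3 value of the cerebellum was above those of the bulb (0.00655) and brain stem (0.00227).

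Among the receptors, Nr1d1 read 11.72 ± 0.08 (cerebellum), 11.58 ± 0.13 (olfactory bulb), 11.51 ± 0.07 (cortex) and 11.25 ± 0.08 (brain stem). The brain stem was below the cortex (adjusted p = 0.0474), bulb (0.0107) and cerebellum (0.000742), and the other neighbours were not separated (0.298 and 0.579). Nr1d2 read 11.41 ± 0.06 (cerebellum), 11.03 ± 0.08 (brain stem), 10.93 ± 0.03 (cortex) and 10.88 ± 0.04 (olfactory bulb). Its value in the cerebellum was 1.30-fold above the brain stem (0.00103), and the remaining regions were not separated from their neighbours (0.441 and 0.642). Both receptors were therefore highest in the cerebellum, and the brain stem was lowest for Nr1d1 and second highest for Nr1d2. Ciart read 10.10 ± 0.20 (cortex), 9.83 ± 0.14 (cerebellum), 9.79 ± 0.28 (brain stem) and 9.66 ± 0.60 (olfactory bulb), with an adjusted p of 0.0873 over the regions.

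Among the output factors, Dbp read 10.25 ± 0.40 (olfactory bulb), 10.24 ± 0.15 (cortex), 10.14 ± 0.07 (cerebellum) and 10.04 ± 0.12 (brain stem), and these did not differ beyond their spread (adjusted p = 0.315). Tef read 10.21 ± 0.16 (cortex), 10.13 ± 0.07 (cerebellum), 9.89 ± 0.20 (olfactory bulb) and 9.87 ± 0.17 (brain stem). Neighbours were not separated (0.574, 0.0862 and 0.913), and the cortex was above the bulb (0.0244) and brain stem (0.0223). Hlf read 10.95 ± 0.03 (cortex), 10.59 ± 0.17 (cerebellum), 10.57 ± 0.07 (brain stem) and 10.50 ± 0.04 (olfactory bulb). The Hlf value of the cortex was 1.28-fold above the cerebellum (0.00302), and the other 3 regions were not separated from their neighbours (0.921 and 0.599). Without +/+ mouse 1, Tef had an adjusted p of 0.174 and Ciart of 0.00543. Ciart also passed with the first array of each sample (0.0247) and with array weights (0.00637). A second Ciart probe set, with a lower mean, passed the regional test with all mice (0.0147).

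**Figure D1:**
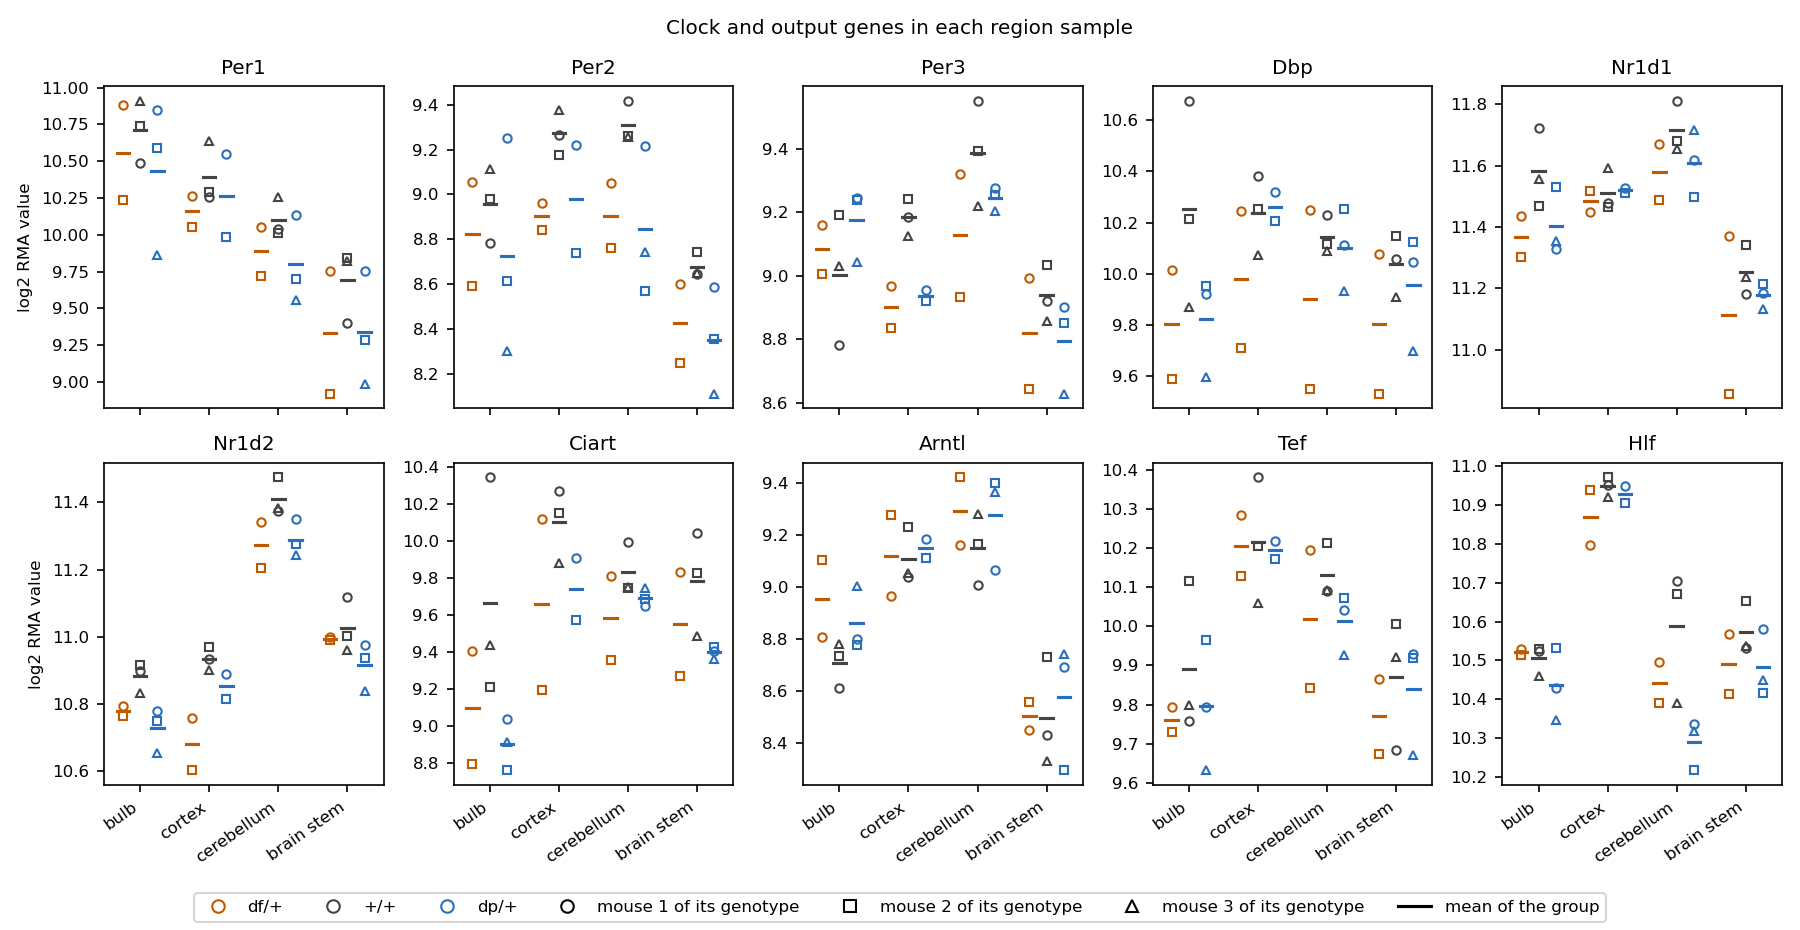
Log2 RMA value (y axis) of each clock gene in each region sample (x axis). Colours mark the genotype, symbols the mouse number within its genotype, and short lines the group means; df/+ mouse 2 (orange squares) read below df/+ mouse 1 (orange circles) in all 4 regions for 7 of the 10 genes.

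For most of these genes, the df/+ mice differed from each other in the same direction in all their regions, as did dp/+ mice 3 and 1. In df/+ mouse 2, 7 of the 10 genes (Per1, Per2, Per3, Dbp, Nr1d2, Ciart and Tef) were below df/+ mouse 1 in all 4 regions, a pattern of 9.85% of all genes, while Arntl was above it in all 4, a pattern of 11.6%. In dp/+ mouse 3, 7 genes (Per1, Per2, Per3, Dbp, Nr1d2, Tef and Hlf) were below dp/+ mouse 1 in all 3 shared regions (18.3% of all genes), and 5 were the lowest of the dp/+ mice in all 3 (8.48%). Both patterns held for 6 genes (4.2% of all genes), and the opposite pair of patterns held for Arntl alone among the 10 (3.32%). In +/+ mice, Dbp was lowest in mouse 3 and Ciart highest in mouse 1 in all 4 regions. Per2 was highest in mice 1, 2 and 3 in 1, 1 and 2 regions, and Nr1d1 in 2, 1 and 1. These counts use the agreement that selected the genes.

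Per1 in the olfactory bulb read 10.88 and 10.24 in df/+ mice 1 and 2, 10.49, 10.74 and 10.91 in +/+ mice 1 to 3, and 10.85, 10.59 and 9.86 in dp/+ mice 1 to 3. Per1 in the cortex read 10.26 and 10.06 in df/+ mice 1 and 2, 10.26, 10.29 and 10.64 in +/+ mice 1 to 3, and 10.55 and 9.98 in dp/+ mice 1 and 2. In both regions df/+ mouse 2 lay below every +/+ mouse, and dp/+ mouse 1 lay within the +/+ range. Per1 in the cerebellum read 10.06 and 9.72 in df/+ mice 1 and 2, 10.04, 10.02 and 10.25 in +/+ mice 1 to 3, and 10.14, 9.70 and 9.56 in dp/+ mice 1 to 3. Per1 in the brain stem read 9.75 and 8.92 in df/+ mice 1 and 2, 9.40, 9.85 and 9.83 in +/+ mice 1 to 3, and 9.76, 9.29 and 8.99 in dp/+ mice 1 to 3. The lowest values of the brain stem were those of df/+ mouse 2 and dp/+ mouse 3, and the df/+ and dp/+ groups overlapped the +/+ group in all 4 regions.

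Per2 in the olfactory bulb read 9.05 and 8.59 in df/+ mice 1 and 2, 8.78, 8.98 and 9.11 in +/+ mice 1 to 3, and 9.25, 8.62 and 8.30 in dp/+ mice 1 to 3. Per2 in the cortex read 8.96 and 8.84 in df/+ mice 1 and 2, 9.26, 9.17 and 9.38 in +/+ mice 1 to 3, and 9.22 and 8.74 in dp/+ mice 1 and 2. The df/+ cortices lay below all +/+ cortices, whereas the bulbs overlapped. Per2 in the cerebellum read 9.05 and 8.76 in df/+ mice 1 and 2, 9.42, 9.26 and 9.26 in +/+ mice 1 to 3, and 9.22, 8.57 and 8.75 in dp/+ mice 1 to 3. Per2 in the brain stem read 8.60 and 8.25 in df/+ mice 1 and 2, 8.64, 8.74 and 8.65 in +/+ mice 1 to 3, and 8.59, 8.36 and 8.11 in dp/+ mice 1 to 3. In the cerebellum and brain stem, both df/+ and all dp/+ samples lay below the +/+ samples. The nearest to them was dp/+ mouse 1 in the cerebellum and df/+ mouse 1 in the brain stem.

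Dbp, a direct target of the Arntl and Clock pair and one of the most strongly rhythmic transcripts of many tissues, was lowest in df/+ mouse 2 throughout. Dbp in the olfactory bulb read 10.01 and 9.59 in df/+ mice 1 and 2, 10.68, 10.22 and 9.87 in +/+ mice 1 to 3, and 9.92, 9.95 and 9.60 in dp/+ mice 1 to 3. Dbp in the cortex read 10.24 and 9.71 in df/+ mice 1 and 2, 10.38, 10.25 and 10.07 in +/+ mice 1 to 3, and 10.32 and 10.21 in dp/+ mice 1 and 2. Dbp in the cerebellum read 10.25 and 9.55 in df/+ mice 1 and 2, 10.23, 10.11 and 10.09 in +/+ mice 1 to 3, and 10.11, 10.25 and 9.93 in dp/+ mice 1 to 3. In each of these regions df/+ mouse 1 read within or above the +/+ range. Dbp in the brain stem read 10.08 and 9.53 in df/+ mice 1 and 2, 10.06, 10.15 and 9.91 in +/+ mice 1 to 3, and 10.04, 10.12 and 9.70 in dp/+ mice 1 to 3. Again df/+ mouse 2 was lowest, followed by dp/+ mouse 3.

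Ciart in the olfactory bulb read 9.40 and 8.79 in df/+ mice 1 and 2, 10.34, 9.21 and 9.43 in +/+ mice 1 to 3, and 9.03, 8.76 and 8.91 in dp/+ mice 1 to 3. Ciart in the cortex read 10.12 and 9.19 in df/+ mice 1 and 2, 10.27, 10.15 and 9.88 in +/+ mice 1 to 3, and 9.91 and 9.57 in dp/+ mice 1 and 2. The bulb of +/+ mouse 1 stood apart upwards, and the dp/+ bulbs all read below the +/+ bulbs. Ciart in the cerebellum read 9.81 and 9.35 in df/+ mice 1 and 2, 9.99, 9.75 and 9.75 in +/+ mice 1 to 3, and 9.65, 9.69 and 9.74 in dp/+ mice 1 to 3. Ciart in the brain stem read 9.83 and 9.27 in df/+ mice 1 and 2, 10.04, 9.83 and 9.49 in +/+ mice 1 to 3, and 9.41, 9.43 and 9.36 in dp/+ mice 1 to 3. The dp/+ values were below the +/+ values in both regions by a narrow margin, and df/+ mouse 2 was lowest in all regions but the bulb, where dp/+ mouse 2 was lower.

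Arntl ran the other way. Arntl in the olfactory bulb read 8.81 and 9.10 in df/+ mice 1 and 2, 8.61, 8.73 and 8.78 in +/+ mice 1 to 3, and 8.80, 8.78 and 9.01 in dp/+ mice 1 to 3. Arntl in the cortex read 8.97 and 9.28 in df/+ mice 1 and 2, 9.04, 9.23 and 9.06 in +/+ mice 1 to 3, and 9.19 and 9.11 in dp/+ mice 1 and 2. In both regions df/+ mouse 2 was the highest of all samples. Arntl in the cerebellum read 9.16 and 9.42 in df/+ mice 1 and 2, 9.01, 9.17 and 9.28 in +/+ mice 1 to 3, and 9.07, 9.40 and 9.37 in dp/+ mice 1 to 3. Arntl in the brain stem read 8.45 and 8.56 in df/+ mice 1 and 2, 8.43, 8.73 and 8.33 in +/+ mice 1 to 3, and 8.69, 8.30 and 8.74 in dp/+ mice 1 to 3. In the cerebellum df/+ mouse 2 was again highest, and in the brain stem dp/+ mouse 3 and +/+ mouse 2 read highest.

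Averaged over its regions and set against the +/+ mean, df/+ mouse 2 read -0.49 for Per1, -0.44 for Per2, -0.27 for Per3, -0.57 for Dbp, -0.69 for Ciart and 0.22 for Arntl. Its fellow df/+ mouse 1 read 0.013, -0.14, -0.017, -0.021, -0.053 and -0.020 for the same genes. The lower df/+ values therefore sat mainly in 1 of the 2 mice, and for Dbp that mouse had 68.3% of the level of the other. Among the dp/+ mice, mouse 3 read -0.70 for Per1, -0.60 for Per2, -0.40 for Dbp and 0.25 for Arntl, and mouse 1 read 0.098, 0.014, -0.069 and 0.070. Ciart did not follow that order, at -0.35, -0.48 and -0.42 in dp/+ mice 1 to 3. The +/+ mice differed too: Per1 ran from -0.18 in mouse 1 to 0.18 in mouse 3, whereas Dbp and Ciart ran from 0.17 and 0.32 in mouse 1 to -0.18 and -0.21 in mouse 3.

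**Figure D2:**
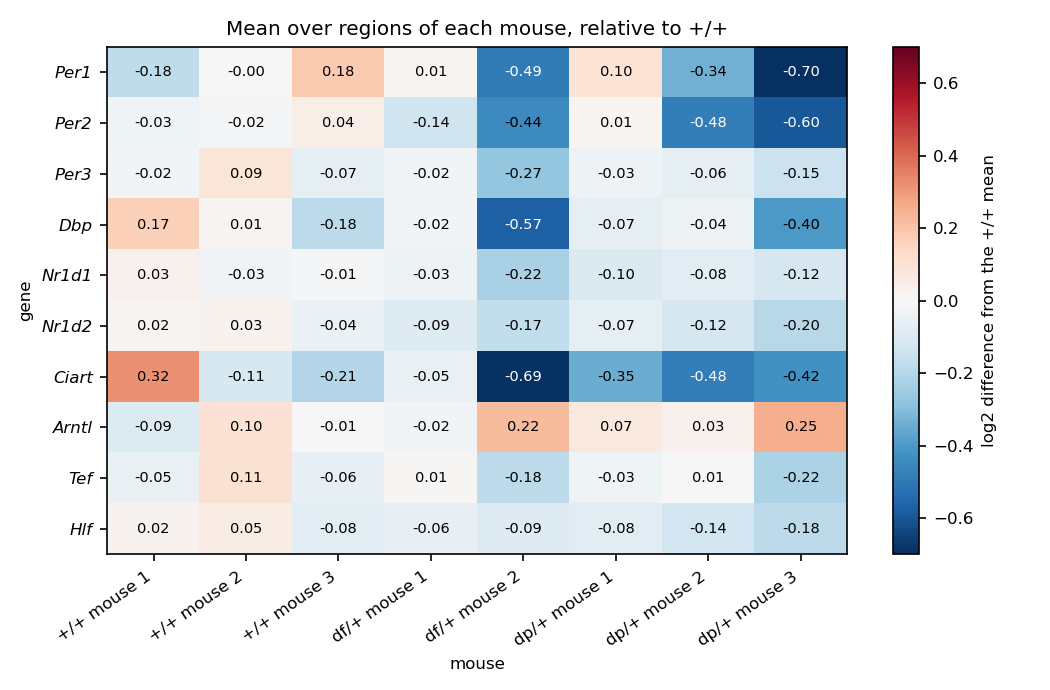
Mean over regions of the log2 difference from the +/+ mean of the region (colour and printed value) for each gene (y axis) and mouse (x axis). The df/+ mouse 2 and dp/+ mouse 3 columns hold the lowest Per1 (-0.49 and -0.70) and Dbp (-0.57 and -0.40) values and the highest Arntl values (0.22 and 0.25).

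**Figure D3:**
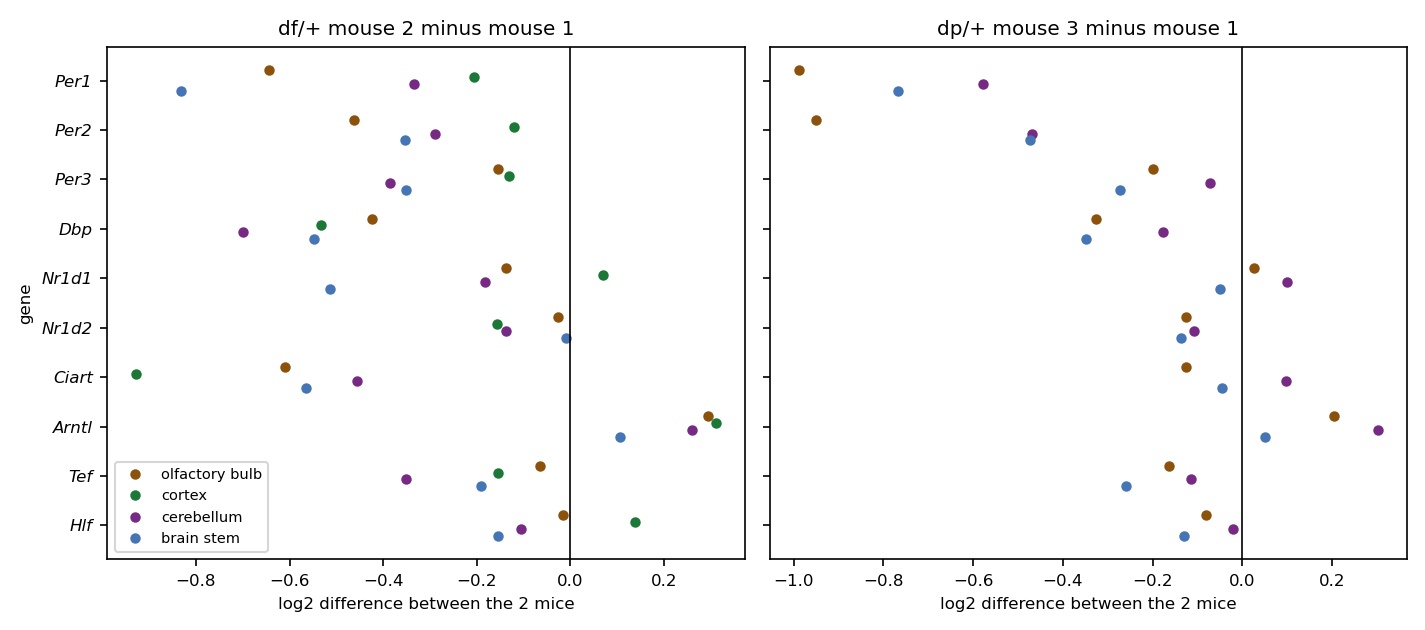
Log2 difference (x axis) between df/+ mice 2 and 1 (left) and dp/+ mice 3 and 1 (right) for each gene (y axis); each point is 1 region, and the dp/+ panel has no cortex. Points of 7 genes lie left of 0 in all regions in each panel, and those of Arntl lie right of 0.

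The share of the variance within genotype and region that lay between mice was estimated from an analysis of variance with 5 degrees of freedom between mice and 14 within. It was 80.2% for Per1, 77.5% for Dbp, 72.2% for Per2, 65.7% for Ciart, 56.8% for Nr1d2, 47.5% for Per3, 43.7% for Tef and 36.9% for Arntl. Hlf, at 12.3%, and Nr1d1, at 3.10%, had shares near or below the median of all genes, 11%, and the other 8 exceeded the upper quartile, 28.5%. The SD between and within mice was 0.047 and 0.041 for Nr1d2 and 0.021 and 0.12 for Nr1d1, beside medians of 0.040 and 0.12 over all genes. The median share of the 10 genes was 52.1% and fell to 40.6% when either df/+ mouse was left out. Both omissions gave the same value because a lone mouse of a genotype carries no information on this share. Without dp/+ mouse 1, Per2 fell to 37.8%, and over the mice left out Per3 ran from 27.1% to 80.3% and Arntl from 19.5% to 55.8%. Left-out mice moved Tef between 30.1% and 71.8% and Hlf between 0% and 22.0%. The second Ciart probe set had a share of 52.0%, with mouse values of -0.015 and -0.73 in df/+ and -0.19, -0.38 and -0.62 in dp/+ mice.

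**Figure D4:**
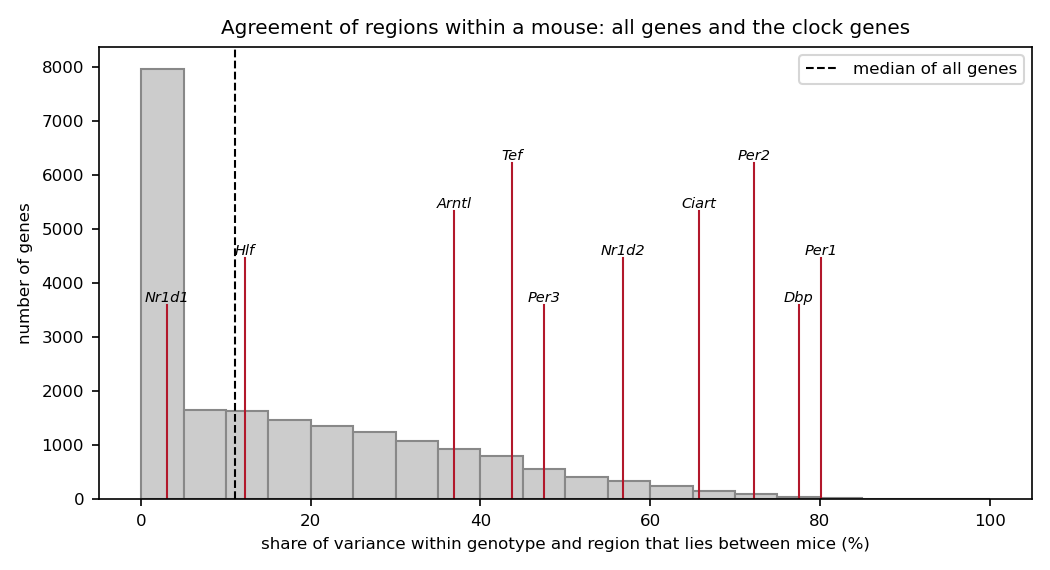
Histogram of the share of variance between mice (x axis, percent) over all genes (y axis, number of genes), with the clock genes as red lines and the median of all genes (11%) dashed. Per1 (80.2%) and Dbp (77.5%) lie farthest right, and Nr1d1 (3.10%) lies in the lowest bar.

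Repeat arrays of 1 sample gave the error of an array for these values, and not that of a new dissection. Over the 10 genes and 6 repeated samples, the 60 differences between arrays had a median of 0.046 and ran from 0.00056 to 0.26. Dbp in df/+ mouse 2 minus mouse 1 ran from -0.70 to -0.42 over the regions, and its largest difference between repeat arrays was 0.11. Per1 ran from -0.83 to -0.21 (repeat arrays up to 0.16), and Nr1d2 from -0.16 to -0.0085 (up to 0.15), so the smaller Nr1d2 differences lay within the error of an array. The smallest differences of Tef (-0.065, repeat arrays up to 0.21), Per3 (-0.1311, up to 0.1320) and Arntl (0.11, up to 0.18) between the df/+ mice lay within it too. Between dp/+ mice 3 and 1, the Nr1d2 differences (-0.14 to -0.11) lay within it in every shared region. The smallest of Hlf (-0.021, repeat arrays up to 0.10), Per3 (-0.073), Tef (-0.12) and Arntl (0.051) did so as well. Those of Per1, Per2 and Dbp exceeded it in every shared region.

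Within genotype and region, deviations of the 10 genes were compared over the 31 samples. Of 36 pairs without Arntl, 35 had a Pearson correlation above 0, with a median of 0.40 and the highest, 0.87, between Per1 and Per2. All 9 pairs with Arntl were below 0, from -0.53 with Dbp to -0.10. The samples come from 8 mice, and each mouse adds up to 4 points, so these correlations describe the samples and carry no p. With Dbp as the reference, Ciart had a correlation of 0.77, Nr1d2 0.63, Tef 0.56, Per3 0.51, Nr1d1 0.49, Per1 0.40, Per2 0.34 and Hlf 0.31. The median over all genes was -0.022. These 8 genes ranged from above 99.7% of all genes (Ciart) to above 84.9% (Hlf), with Per1 above 90.0% and Per2 above 86.6%. The Ciart value is that of the first probe set, and the second was not compared with Dbp. Outside the group, the highest values with Dbp were those of Cnpy3 (0.89), a chaperone cofactor of Toll-like receptors, Mtfr1l (0.88), Kctd13 (0.87), an adaptor of a cullin ubiquitin ligase encoded in the copy number interval, Fbxl15 (0.87) and Sh3bgrl3 (0.87). The lowest were Heca (-0.86), Camk2n1 (-0.84), an inhibitor of calcium/calmodulin-dependent kinase II, and Senp6 (-0.81), a SUMO protease.

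Copy number was first tested as a slope of the log2 value on log2 copies across the brain, with 1 value per mouse. None of the 10 genes passed by limma (smallest adjusted p = 0.833), and 0 had an unadjusted p under 0.05; the test called 0.11% of all genes, and 6.87% were under 0.05 unadjusted. Slopes ran from -0.037 to 0.087, where 1 would be proportional to copies, and 4 of 10 were below 0 (40.5% of all genes).

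In df/+ mice, 9 of the 10 genes had a mean below +/+ and Arntl a mean above it, but none passed the test (limma, smallest adjusted p = 0.732). The comparison called 0.115% of all genes, and 57.1% of all genes had a mean below +/+. Without adjustment, 1 member, Ciart, was under 0.05, against 6.75% of all genes. The median difference of the 10 genes was -0.14, beside -0.013 for all genes. Arntl differed from +/+ by 0.10 ± 0.09 (SE, here and below; 107% of +/+, adjusted p = 0.893). Per1 differed by -0.24 ± 0.20 (84.7%), Per2 by -0.29 ± 0.15 (81.8%) and Per3 by -0.15 ± 0.08 (90.4%). The repressor Ciart differed by -0.37 ± 0.17 (77.2%), Nr1d1 by -0.13 ± 0.06 and Nr1d2 by -0.13 ± 0.06 (91.4% and 91.3%). Of the output factors, Dbp differed by -0.30 ± 0.15 (81.4%), Tef by -0.09 ± 0.09 and Hlf by -0.07 ± 0.06. For Per2, Nr1d1 and Nr1d2 the df/+ mice did not overlap the +/+ mice and were lower (3 of 10 genes, against 13.8% of all genes), and 0 of 10 lay above (6.49%).

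Most of these means depended on df/+ mouse 2. Without it, the difference was 0.013 for Per1, 0.0074 for Tef and -0.020 for Arntl, so these 3 changed sign. It was -0.021 for Dbp, -0.053 for Ciart, -0.017 for Per3, -0.034 for Nr1d1 and -0.14 for Per2. Nr1d2, at -0.091, and Hlf, at -0.056, kept more of their difference. Of the choroid plexus markers (6 of 6 measured: Ttr, Folr1, Kl, Aqp1, Slc4a5 and Otx2), 0 were called in df/+ or dp/+ mice. Their mean was -0.58 in df/+ mouse 1 and -0.26 in df/+ mouse 2, and ran from -0.19 to 0.17 in +/+ mice. Hypothalamic genes (6 of 6, among them Avp, Oxt and Six6) read -0.35 in df/+ mouse 2, -0.070 in df/+ mouse 1 and -0.095 to 0.087 in +/+ mice. Their part in the clock gene values was not tested.

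In dp/+ mice, again 9 of 10 genes had a mean below +/+ and Arntl a mean above it, and none passed across the brain (smallest adjusted p = 0.142, limma). The comparison called 1.86% of all genes, and 52.2% of all genes had a mean below +/+. Unadjusted, 4 members were under 0.05 (Per2, Nr1d2, Ciart and Hlf), beside 23.7% of all genes. The median difference was -0.13 for the 10 genes and -0.0066 for all genes. Both comparisons share the +/+ mice, so their common direction is not independent. Arntl differed from +/+ by 0.12 ± 0.08 (108%), Per1 by -0.31 ± 0.18 (80.5%), Per2 by -0.36 ± 0.13 (78.2%) and Per3 by -0.08 ± 0.07. The repressor Ciart differed by -0.42 ± 0.15 (74.9%), Nr1d1 by -0.10 ± 0.06 and Nr1d2 by -0.13 ± 0.05 (93.4% and 91.6%). Dbp differed by -0.17 ± 0.14 (88.9%), Tef by -0.08 ± 0.08 and Hlf by -0.13 ± 0.05 (91.2%). All dp/+ mice lay below all +/+ mice for Nr1d1, Nr1d2, Ciart and Hlf (4 of 10 genes, against 10.9% of all genes), and 0 of 10 lay above (17.0%).

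Calls across the brain appeared for Per2 and Ciart when all region samples were fitted with the mouse as a random block (adjusted p = 0.032 and 0.0419), a fit that called 5.17% of all genes. That fit used 1 correlation within mice for all genes, whereas the share between mice was 72.2% for Per2 and 65.7% for Ciart. It can therefore count the regions of a mouse as more independent than they were for these 2 genes. Per2 was also called when dp/+ mouse 1 was left out (-0.54, adjusted p = 0.0278; 0.602% of all genes), where Per1 differed by -0.52. Without +/+ mouse 1, Ciart differed by -0.25 and Dbp by -0.084, and without dp/+ mouse 3, Per1 differed by -0.12, Per2 by -0.24, Dbp by -0.052, Per3 by -0.048, Arntl by 0.050 and Tef by -0.013. Without +/+ mouse 2, Per3 differed by -0.037 and Tef by -0.022, and without +/+ mouse 1 Arntl differed by 0.069. Without +/+ mouse 3, Dbp differed by -0.26. Tef differed by -0.13 without dp/+ mouse 2. The second Ciart probe set differed by -0.40 ± 0.17 (adjusted p = 0.2) and its dp/+ and +/+ mice overlapped. Pituitary genes (4 of 4: Prl, Gh, Pomc and Cga) averaged 0.15 to 0.37 in dp/+ mice and -0.10 to 0.055 in +/+ mice. Pineal gland genes (3 of 4 measured) averaged 0.098 to 0.14 in dp/+ and -0.054 to 0.080 in +/+ mice, and 0 genes of either list were called. The choroid plexus genes averaged -0.38 to -0.14 in dp/+ mice. Their part in these values was not tested.

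**Figure D5:**
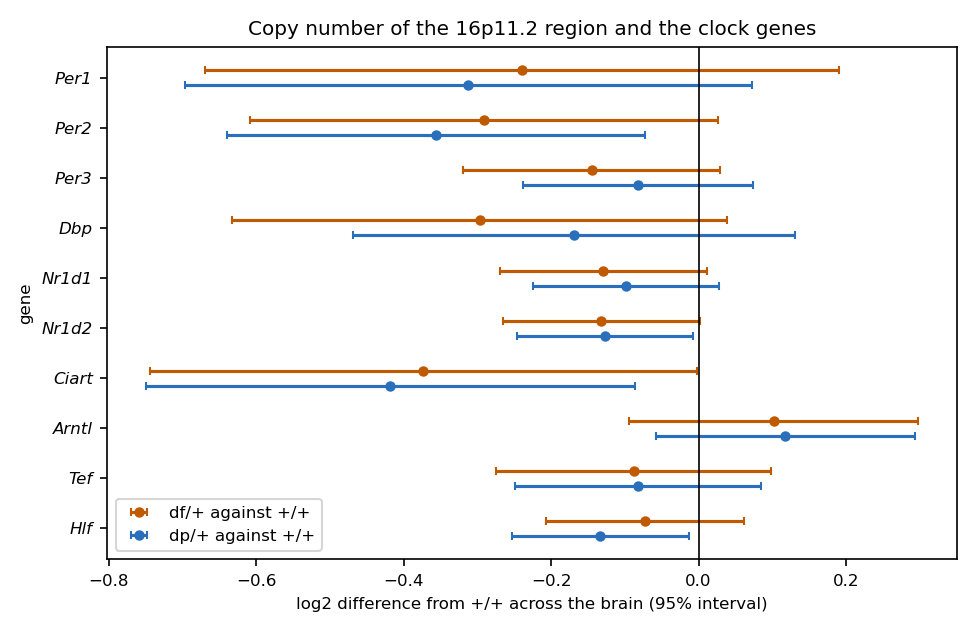
Log2 difference from +/+ across the brain (x axis, point with 95% interval from limma) for each clock gene (y axis) in df/+ (orange) and dp/+ (blue) mice. Means are below 0 for 9 of 10 genes in each comparison and above 0 for Arntl, and none passed after adjustment over all genes.

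Within single regions, df/+ mice gave no call among the 10 genes in the olfactory bulb, cortex, cerebellum or brain stem (limma; 0.291%, 0.1%, 0.0702% and 0.211% of all genes called, in that order). Unadjusted, 2, 2, 2 and 0 of the 10 were under 0.05, against 10.7%, 6.01%, 8.78% and 4.17% of all genes. In dp/+ mice, Ciart fell in the olfactory bulb by 0.76 ± 0.21 on the log2 scale (59.0% of +/+, adjusted p = 0.0493; 2.27% of all genes called, 1.06% as lower). Hlf fell in the dp/+ cerebellum by 0.30 ± 0.08 (81.3% of +/+, adjusted p = 0.0343; 5.54% called, 3.26% as lower). Nr1d2 in the df/+ cortex (-0.25 ± 0.08, 0.478) and Per2 in the dp/+ cerebellum (-0.47 ± 0.17, 0.0806) did not pass. No gene of the 10 passed in the dp/+ cortex (0.0% of all genes called) or brain stem (0.015%), and 3, 1, 2 and 0 of the 10 were under 0.05 unadjusted in the bulb, cortex, cerebellum and brain stem (17.9%, 15.8%, 28.5% and 3.56% of all genes).

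The Ciart call depended on single samples and on their weighting. With array weights it was lost and the difference was -0.45 (adjusted p = 0.209). As given above, its +/+ bulbs read 9.43 in mouse 3, 9.21 in mouse 2 and 10.34 in mouse 1, and all dp/+ bulbs read 9.03 or lower. Without +/+ mouse 1 the difference was -0.42 (adjusted p = 0.309), and the call was also lost without +/+ mouse 2 (0.0546) or dp/+ mouse 1, 2 or 3 (0.0676, 0.175 and 0.126). The second Ciart probe set gave -0.75 ± 0.26 in the bulb (adjusted p = 0.112). Hlf in the cerebellum read 10.49 and 10.39 in df/+ mice 1 and 2, 10.71, 10.67 and 10.39 in +/+ mice 1 to 3, and 10.34, 10.22 and 10.32 in dp/+ mice 1 to 3. The dp/+ cerebella all read below the +/+ cerebella, of which mouse 3 was close to them. The Hlf call was lost without +/+ mouse 1 (0.0959) or 2 (0.173) and without dp/+ mouse 1 (0.143) or 2 (0.0921), and all 3 other scalings of the arrays lost both calls (adjusted p = 0.0601 to 0.068 for Ciart and 0.0841 to 0.184 for Hlf).

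Samples of a genotype that did not overlap the +/+ samples were counted in each region. All df/+ samples lay below all +/+ samples for 2 genes in the bulb (14.6% of all genes), 3 in cortex (14.3%), 2 in cerebellum (19.2%) and 1 in brain stem (9.32%). The corresponding dp/+ counts were 2 (8.82%), 2 (13.9%), 5 (20.3%) and 2 (3.34%). Per2 was among them in the df/+ cortex, cerebellum and brain stem and in the dp/+ cerebellum and brain stem, and Nr1d2 in the bulb, cortex and cerebellum of both genotypes. Arntl in the df/+ bulb was the 1 case of samples all above +/+ (10.5% of all genes). The count was 0 in the df/+ cortex (8.76%), cerebellum (8.18%) and brain stem (5.87%) and in the dp/+ bulb (8.87%), cortex (25.9%), cerebellum (16.1%) and brain stem (2.83%). None of the 10 genes had genotype effects that differed between regions by the interaction F test (limma, smallest adjusted p = 0.615 and unadjusted p = 0.103, both for Per3). That test called 0.216% of all genes. It used 1 correlation within mice for all genes, 0.12, whereas the share between mice was 47.5% for Per3. For Per3 it can therefore overstate the spread of region differences within a mouse.

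Of 18 other clock genes, 15 were measured, and 0 were called by the slope, in df/+ or in dp/+ mice (limma); 0, 1 and 3 of the 15 were under 0.05 unadjusted, against 6.87%, 6.75% and 23.7% of all genes. Their median difference was -0.052 in df/+ and -0.073 in dp/+ mice. Bhlhe41, a basic helix-loop-helix repressor of the Arntl and Clock pair, differed by -0.32 ± 0.08 in dp/+ (80.4%, adjusted p = 0.0557) and by -0.22 ± 0.08 in df/+ mice (0.681). Its dp/+ adjusted p ran from 0.0117 to 0.199 over the alternatives. Nfil3, a repressor at D-boxes, differed by -0.17 ± 0.07 (adjusted p = 0.162), Timeless by 0.13 ± 0.06 (0.208) and Arntl2, a paralogue of Arntl, by -0.08 ± 0.05 in dp/+ mice (0.356). In df/+ mice, Cry2, a core repressor, differed by -0.13 ± 0.06 (0.746), Fbxl21, a ligase subunit for cryptochromes, by -0.17 ± 0.10 (0.801) and Clock itself by 0.08 ± 0.05 (0.831). Between +/+ regions 14 of these 15 genes differed, against 58.0% of all genes. Their median share of variance between mice was 20.3%, beside 11% for all genes, with 5 of 15 above the upper quartile of all genes.

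Of 10 clock-controlled output genes, 8 were measured. In dp/+ mice the comparison called 1.86% of all genes, and 7 of the 8 did not pass. The other, Tsc22d3 (Gilz), which is also induced by glucocorticoids, fell by 0.44 ± 0.09 (73.5% of +/+, limma adjusted p = 0.0404). The call was lost without +/+ mouse 2 (0.181) or 3 (0.0969) or dp/+ mouse 2 (0.113) or 3 (0.0765), with quantile normalisation within regions (0.13) or cyclic loess (0.137), in the brighter genes (0.106), with a trended robust prior (0.118) and with the replicate number as a block (0.0933). In df/+ mice Tsc22d3 differed by -0.22 ± 0.11 (0.732), and 0 of 8 were called (0.115% of all genes). Unadjusted, 1 of the 8 was under 0.05 in df/+ and 3 in dp/+ mice, against 6.75% and 23.7% of all genes. Nampt, the rate-limiting enzyme of NAD salvage, differed by -0.13 ± 0.06 in df/+ (0.722) and -0.16 ± 0.05 in dp/+ mice (0.119). Lonrf3 differed by -0.13 ± 0.07 (0.801) and -0.17 ± 0.06 (0.161), and Usp2, a deubiquitinase, by -0.15 ± 0.11 (0.862) and -0.19 ± 0.10 (0.264). Between +/+ regions 6 of the 8 differed, against 58.0% of all genes. Their median share of variance between mice was 10.2%, beside 11% for all genes.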

How the data were processed

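The authors' deposited values are log2 summaries of 35556 probe sets on 37 Affymetrix gene arrays, made with RMA in Affymetrix Expression Console per the submitters' processing notes, which give no versions. Base 2 was read from the values. RMA background-corrects and quantile-normalises arrays together, so a value is relative to its array's other probe sets. Depth has no counterpart on arrays, and their number limits the precision.

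The mouse was the replicate, and the labels do not say how far mice shared litters. Arrays of 1 sample were averaged; +/+ mouse 3 has its bulb from an array labelled as a technical repeat alone. Probe sets with 1 symbol numbered 21789, of which 21698 matched the RefSeq gene table (GRCm38.p6); 1621 had several symbols and 12146 none. The highest-mean probe set stood for each of 19938 genes. No column was left out.

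All fits used limma 3.58.1 (R 4.3.3). Slope and genotype contrasts had 8 mouse values. Region contrasts had 31 samples, a random block per mouse and a consensus correlation of 0.12. The +/+ region tests held each mouse as a fixed term. Adjustment of p was by Benjamini-Hochberg over all genes, threshold 0.05. The fits were tested on simulated data. Members, lists and the naming rule were chosen with earlier results of these data known. The rule names all members, up to 4 genes of smallest p per contrast from the other clock and output lists, up to 2 examples from each remaining list, and the 5 highest and 3 lowest correlates of Dbp. The choice of promoters follows it, with Per3 added; protein sequences were not used here.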

Additional observations from a re-analysis of the deposited data

Results flagged for a closer look

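For 3 genes, all samples of a genotype lay to one side of the +/+ mean in 1 region and all to the other side in another. Per3 in df/+ mice differed from +/+ by 0.081 (bulb), -0.28 (cortex) and -0.26 (cerebellum). In dp/+ mice Per3 differed by 0.17 (bulb), -0.26 (cortex), -0.14 (cerebellum) and -0.14 (brain stem). Nr1d1 in dp/+ mice differed by 0.0087 (cortex), -0.18 (bulb) and -0.076 (brain stem). Hlf in df/+ mice differed by 0.017 (bulb), -0.080 (cortex), -0.15 (cerebellum) and -0.082 (brain stem). The F test of differences between regions did not pass for Per3 (adjusted p = 0.615), Nr1d1 (0.975) or Hlf (0.744).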

How the results depend on the processing

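None of the 10 genes was called by the slope, in df/+ mice or by the interaction under any alternative. In dp/+ mice across the brain the count of 0 was 0 to 1 without each mouse. It rose to 2 with all region samples and a random mouse block (5.17% of all genes called, against 1.86%). As given above, that fit used 1 correlation within mice for all genes. The count of 2 within dp/+ regions was 0 with arrays centred on their medians, quantile normalisation within regions, cyclic loess or each region fitted alone, 1 with brighter genes, a trended robust prior or no mouse block, and 0 to 2 without each mouse. With array weights the 2 calls were Per2 and Hlf, both in the cerebellum. The median share between mice was 40.8% with quantile normalisation within regions and 40.6% to 73.5% without each mouse. Left-out mice moved the df/+ difference of Per1 from -0.49 to 0.013, of Arntl from -0.020 to 0.22 and of Tef from -0.18 to 0.0074, the sign changing without df/+ mouse 2. Of 633 other values, 573 kept their side, 11 gained a call, 31 lost one and 15 counts moved. The labels do not say whether replicate numbers pair the mice. Same-numbered mice of different genotypes had correlations of -0.38 to 0.17, and 1 of 8 matched its own number best. Deviations were taken from genotype means of 2 or 3 mice, so this check cannot tell whether same-numbered mice were paired. With a replicate block, 0 of the 10 genes were called in df/+, 0 in dp/+ and 2 within dp/+ regions. Over all genes, the dp/+ count of 371 ran from 11 (without +/+ mouse 2) to 2222 (array weights), and was 31 with the replicate block. The causes were not tested. Only 2 df/+ and 3 mice of each other genotype limit these comparisons.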

Other observations

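Other lists that respond to activity, hormones or temperature were read in the same mice, with 0 genes called across the brain in either genotype by limma. Immediate early genes, the first transcripts induced by neuronal activity (12 of 12 measured), had a median difference of -0.16 in df/+ and -0.081 in dp/+ mice, with 4 and 2 genes under 0.05 unadjusted (6.75% and 23.7% of all genes). Junb differed by -0.29 ± 0.06 in df/+ mice (adjusted p = 0.243) and Egr1 by -0.23 ± 0.08 (0.588). Their median was -0.20 and -0.22 in the df/+ mice and 0.0096, -0.067 and -0.22 in dp/+ mice 1 to 3.

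Glucocorticoid-responsive genes (9 of 10 measured) had medians of -0.21 in df/+ and -0.21 in dp/+ mice, with 2 and 5 under 0.05 unadjusted, against the same 6.75% and 23.7% of all genes. Fkbp5, a co-chaperone of the glucocorticoid receptor, differed by -0.46 ± 0.11 in dp/+ mice (adjusted p = 0.0549) and Pdk4, a pyruvate dehydrogenase kinase, by -0.62 ± 0.16 (0.0662). The list median was -0.28 in df/+ mouse 2 and -0.35 in dp/+ mouse 3, the same mice in which Per1 and Dbp were low, against -0.085 in df/+ mouse 1 and -0.16 in each of the other dp/+ mice. The cold-inducible RNA-binding genes Cirbp and Rbm3 differed by -0.39 ± 0.11 and -0.46 ± 0.13 in df/+ mice (both adjusted p = 0.523), with a list median of -0.62 in df/+ mouse 2 and -0.22 in df/+ mouse 1. In dp/+ mice they differed by -0.06 ± 0.10 and 0.07 ± 0.12. How these lists bear on the clock genes was not tested.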
